A study of Homo sapiens with 4 samples.

Results

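The genes described here encode the MHC class I route of antigen presentation, namely HLA-B, HLA-C, HLA-E, HLA-F, B2M, TAP1, TAP2, TAPBP and NLRC5. They were taken by gene symbol from a table of read counts, in which each symbol matched 1 row, and make up 9 of its 61806 genes. The table holds 4 RNA-seq libraries of human cancer cell lines, with 1 library for each condition. MDA-MB-231, a breast cancer line, and MDA-MB-435, given as melanoma cells, were each sequenced as a control and after CPYPP. Both lines are labelled as wild type, and the treated cells received 10 µM CPYPP for 6 h. CPYPP is an inhibitor of DOCK proteins, which activate the small GTPase Rac1. The study used it to trigger paraptosis, a form of cell death with cytoplasmic vacuoles. From knockdown of DOCK1, Rac1 and Rac2, the paper proposes that this cell death does not depend on DOCK1 activation. Each condition is a single library, and the labels describe growth and treatment of MDA-MB-435 for every sample, so the line was taken from the sample's own cell line label. The comparisons ask how the class I genes differed between the lines without treatment and how each line's levels stood after CPYPP.

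An MHC class I molecule consists of a polymorphic heavy chain and the invariant light chain beta-2-microglobulin, and it shows peptides from inside the cell to CD8 T cells and natural killer cells. The peptides are cut by the proteasome, carried into the endoplasmic reticulum by the TAP1-TAP2 transporter, and loaded onto the heavy chain with the help of tapasin, the product of TAPBP. NLRC5 is the transactivator of class I genes and works through the X and Y boxes of their promoters, while interferon acts through STAT and IRF factors. Tumour cells are known to vary widely in the expression of these genes.

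The promoters of 7 of the 9 genes were found in RefSeq (GRCh38.p14), with HLA-E and NLRC5 having no entry. They are printed here because the heavy chain, light chain and transporter genes shared promoter letters to which the regulators described later are known to bind. The 250 bases before each start site were searched on both strands for a GAAA pair (GAAA, any 2 bases and GAAA again, the core of an interferon response element), CCAAT (the letters of the Y box, bound by NF-Y) and TGACG (the core letters of the CRE, bound by the CREB and ATF family). In the windows printed here, matches of different motifs did not overlap, whereas neighbouring GAAA pairs in B2M, TAP1 and TAPBP shared a GAAA. Capitals mark the matches, and each sequence is written 5′ to 3′ in the direction of transcription.
HLA-B: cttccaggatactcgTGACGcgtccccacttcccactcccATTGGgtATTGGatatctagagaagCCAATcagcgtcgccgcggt
HLA-C: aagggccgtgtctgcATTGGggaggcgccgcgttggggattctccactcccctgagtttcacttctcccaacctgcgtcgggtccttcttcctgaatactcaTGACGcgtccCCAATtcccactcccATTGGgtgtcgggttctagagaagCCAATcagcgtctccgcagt
HLA-F: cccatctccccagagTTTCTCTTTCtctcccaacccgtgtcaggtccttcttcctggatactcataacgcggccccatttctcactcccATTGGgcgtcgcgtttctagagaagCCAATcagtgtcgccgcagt
B2M: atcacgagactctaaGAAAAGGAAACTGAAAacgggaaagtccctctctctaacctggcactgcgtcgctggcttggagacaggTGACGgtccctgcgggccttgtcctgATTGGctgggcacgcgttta
TAP1: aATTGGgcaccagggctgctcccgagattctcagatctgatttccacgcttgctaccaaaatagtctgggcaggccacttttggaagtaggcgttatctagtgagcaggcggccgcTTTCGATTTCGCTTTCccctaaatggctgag
TAP2: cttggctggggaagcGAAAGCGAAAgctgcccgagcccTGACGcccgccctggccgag
TAPBP: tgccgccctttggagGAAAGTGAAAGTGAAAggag
These windows lie at chr6:31357216-31357300, chr6:31272129-31272299, chr6:32853808-32853954, chr6:32838755-32838812 and chr6:33314079-33314113 on the minus strand and at chr6:29723263-29723396 and chr15:44711358-44711487 on the plus strand. The GAAA pair was found in 5 of the 7 genes (HLA-F, B2M, TAP1, TAP2 and TAPBP), compared with 3.02% of 35116 promoters. CCAAT was found in 5 (HLA-B, HLA-C, HLA-F, B2M and TAP1) compared with 32%, and TGACG in 4 (HLA-B, HLA-C, B2M and TAP2) compared with 21.2%. HLA-B, HLA-C and B2M held both CCAAT and TGACG, which 7.26% of all promoters do. TAP1 has a second start site in RefSeq, whose promoter held none of the letters searched. A match is a run of letters and not evidence of binding. Only exact matches were marked, so a promoter without a match may still hold such an element in other letters.

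NLRC5 (ENSG00000140853) lies on chr16:56989485-57083531 and B2M (ENSG00000166710) on chr15:44711358-44718851, whereas the other members lie within the MHC on chromosome 6. From one end to the other these are HLA-F (ENSG00000204642, chr6:29722775-29738528), HLA-E (ENSG00000204592, chr6:30489509-30494194), HLA-C (ENSG00000204525, chr6:31268749-31272130), HLA-B (ENSG00000234745, chr6:31353872-31367067), TAP2 (ENSG00000204267, chr6:32821833-32838739), TAP1 (ENSG00000168394, chr6:32845209-32853816) and TAPBP (ENSG00000231925, chr6:33299694-33314284). These are the table's positions, which overlap GENCODE v29 (GRCh38) for 58241 of 58254 shared gene identifiers, although the submitters' notes name GRCh37.p13. NLRC5, B2M, HLA-F and HLA-E are on the plus strand and the others on the minus strand.

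The libraries held 22359735 (control) and 17196385 (CPYPP) counts for MDA-MB-231, and 22663954 and 19489282 for MDA-MB-435, and mitochondrial genes took between 3.55% and 5.34% of them. The labels were checked against marker genes. Of 7 melanocyte markers, 6 were above 3 counts in both MDA-MB-435 libraries and 3 in both MDA-MB-231 libraries. SOX10, a gene of this list, had 0 and 1 counts in MDA-MB-231, compared with 3031 and 707 in MDA-MB-435. The marker DCT was also called lower in MDA-MB-231 by edgeR (log2 -7.895, adjusted p = 4.79e-08), but the other melanocyte markers did not all follow these 2. The pigment cell gene PMEL had 34 and 29 counts in MDA-MB-231, above the 13 and 4 of MDA-MB-435, and edgeR called it higher in MDA-MB-231 (log2 2.09, adjusted p = 0.0106). MITF had 1585 and 690 counts in MDA-MB-231, compared with 1405 and 809, and MLANA had 8 and 14, compared with 9 and 14. TYR, the key enzyme of pigment synthesis, had at most 3 counts in any library. The epithelial list summed to 1831 and 1570 CPM (counts per 1e+06) in MDA-MB-231, compared with 313 and 250 in MDA-MB-435, where the epithelial cadherin CDH1 was at 0 in both libraries. Of its 8 genes, edgeR called 6 higher in MDA-MB-231 and 1, ESR1, lower (log2 -1.87, adjusted p = 0.0424). The leukocyte list summed to between 1.628 and 2.997 CPM, with the B cell gene MS4A1 at 0 in all 4 libraries. Of its 9 genes, 4 and 2 were above 3 counts in MDA-MB-231 (control and CPYPP) and 4 in both MDA-MB-435 libraries. edgeR called 1 of them, PTPRC, higher in MDA-MB-231 (log2 4.31, adjusted p = 0.00431). The melanocyte sum was 226 CPM in the control and 103 CPM in the CPYPP library of MDA-MB-435, and stood at 72.9 and 42.9 CPM in MDA-MB-231, and its part in the results below was not tested. In bulk RNA, fewer cells that express a gene and less RNA per cell cannot be told apart.

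Levels were compared between genes as RPKM, the counts divided by exon length in kilobases and by the library total in units of 1e+06, with a 95% exact Poisson interval. All intervals here cover counting error only, because no condition has a second library. B2M, the light chain, was the highest member in every library. Its 12847 and 9422 counts in MDA-MB-231 (control and CPYPP) amounted to 184 RPKM (181 to 187) and 176 RPKM (172 to 179). In MDA-MB-435 its 22238 and 18699 counts amounted to 314 RPKM (310.3 to 319) and 307 RPKM (303 to 312). Thus both MDA-MB-435 libraries lay above both MDA-MB-231 libraries.

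Among the heavy chains, HLA-B and HLA-C are classical chains that present varied peptides to T cells, HLA-E mainly presents leader peptides of other class I chains to natural killer receptors, and HLA-F is a non-classical chain with restricted expression. HLA-B had 3444 and 2326 counts in MDA-MB-231 (33.3 and 29.3 RPKM) and 8704 and 7123 in MDA-MB-435 (83.1 and 79.1 RPKM). HLA-C had 1266 and 789 counts (22.6 and 18.3 RPKM) and 1746 and 1401 counts (30.7 and 28.7 RPKM), respectively. HLA-E had 5170 and 4334 counts (79.1 and 86.3 RPKM) and 6307 and 5501 counts (95.2 and 96.6 RPKM). Of the heavy chains, HLA-E was the one for which the lines stood closest. HLA-F had 57 and 40 counts in MDA-MB-231 (0.591 and 0.539 RPKM) and 600 and 426 in MDA-MB-435 (6.14 and 5.07 RPKM). For each heavy chain both libraries of MDA-MB-435 lay above both of MDA-MB-231. HLA genes differ in sequence between people, and how well each line's alleles aligned to 1 reference was not tested.

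The peptide transporter subunits and tapasin had another order. TAP1 had 1367 and 736 counts in MDA-MB-231 (12.9 and 9.03 RPKM) and 1446 and 931 in MDA-MB-435 (13.5 and 10.1 RPKM). Its lines overlapped, and in both the CPYPP library was the lower one. TAP2 had 3003 and 2173 counts in MDA-MB-231 (12.97 and 12.2 RPKM) and 1663 and 1599 in MDA-MB-435 (7.08 and 7.92 RPKM). TAPBP had 3464 and 2451 counts (23.3 and 21.4 RPKM) and 1935 and 1263 counts (12.8 and 9.75 RPKM). Unlike the heavy chains, TAP2 and TAPBP were higher in both MDA-MB-231 libraries than in both of MDA-MB-435. NLRC5, the transactivator, had 319 and 211 counts in MDA-MB-231 (1.15 and 0.991 RPKM) and 1696 and 942 in MDA-MB-435 (6.04 and 3.90 RPKM), and the lines did not overlap.

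In the MDA-MB-231 control the order by RPKM was B2M, HLA-E, HLA-B, TAPBP, HLA-C, TAP2, TAP1, NLRC5 and HLA-F, and the intervals of TAPBP and HLA-C and of TAP2 and TAP1 overlapped. In the MDA-MB-435 control the order was B2M, HLA-E, HLA-B, HLA-C, TAP1, TAPBP, TAP2, HLA-F and NLRC5. There the intervals overlapped for TAP1 and TAPBP and for HLA-F and NLRC5, whereas TAP2 was above HLA-F by more than counting error.

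**Figure D1:**
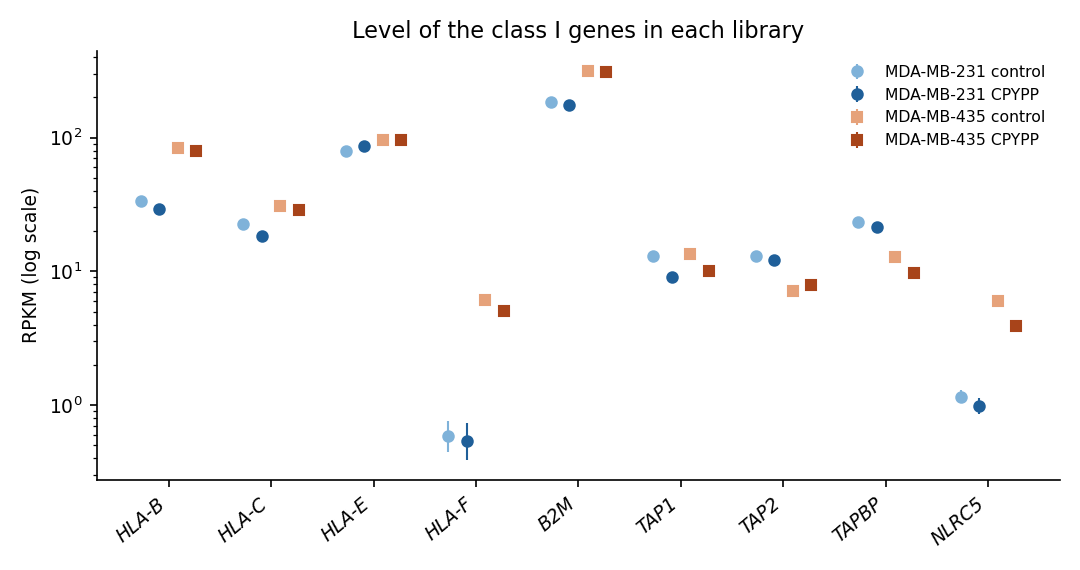
RPKM on a log scale for the 9 class I genes in the 4 libraries, with 95% exact Poisson intervals for counting error that are mostly smaller than the symbols. Circles are MDA-MB-231 and squares MDA-MB-435, pale for control and dark for CPYPP. HLA-F stood at 0.591 and 6.14 RPKM in the MDA-MB-231 and the MDA-MB-435 control, and B2M at 184 and 314.

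Without treatment, HLA-F, NLRC5 and HLA-B were higher in MDA-MB-435 than in MDA-MB-231 by more than 2-fold, the change that was taken as a call. Folds between libraries were taken after TMM scaling, with a 95% exact binomial interval. HLA-F was 9.82-fold higher in MDA-MB-435 (7.48 to 13.1), NLRC5 4.96-fold (4.40 to 5.61) and HLA-B 2.36-fold (2.27 to 2.45). Thus 3 of the 9 members passed, all in that direction. Of 18269 genes tested, 45.4% passed, with 23.5% lower in MDA-MB-231 and 21.9% higher there, so 3 of 9 lies below the share that passed in any direction and above the share lower in MDA-MB-231. The median log2 fold of the members (MDA-MB-231 over MDA-MB-435) was -0.36, beside -0.01 for all genes.

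The other 6 members lay within 2-fold. In MDA-MB-435 B2M stood 1.62-fold above MDA-MB-231 (1.58 to 1.65), HLA-C 1.29-fold (1.196 to 1.384) and HLA-E 1.14-fold (1.10 to 1.18). TAP1 stood at 1.01 times the MDA-MB-435 level in MDA-MB-231 (0.940 to 1.09), an interval that includes no difference. TAP2 stood at 1.94 times (1.82 to 2.06) and TAPBP at 1.92 times (1.81 to 2.03) in the opposite direction, and both lay just inside the 2-fold limit. Therefore the subunits of 1 transporter differed in their ratio between the lines, with TAP2 to TAP1 at 3003 to 1367 counts in MDA-MB-231, compared with 1663 to 1446 in MDA-MB-435.

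The line difference was also fitted over all 4 libraries with treatment as a block, using edgeR's quasi-likelihood test with Benjamini-Hochberg adjustment. This fit takes the 2 treatments as the only repeat of a line and has 1 residual degree of freedom. edgeR therefore draws each gene's variance toward a trend over all genes tested. Its error is the disagreement between treatments, pooled in this way over genes, and not that between cultures. It called 7 of the 9 members, 5 lower and 2 higher in MDA-MB-231, beside 62.9% of 16801 genes (30.5% lower and 32.4% higher). The edgeR log2 differences (MDA-MB-231 minus MDA-MB-435) were -3.25 for HLA-F (SE 0.216, adjusted p = 5.21e-07), -2.14 for NLRC5 (SE 0.160, adjusted p = 1.27e-06) and -1.32 for HLA-B (SE 0.111, adjusted p = 2.88e-06). By the same edgeR test, B2M (-0.74, SE 0.110, adjusted p = 0.000188) and HLA-C (-0.49, SE 0.128, adjusted p = 0.00655) were also lower in MDA-MB-231. TAPBP (1.05, SE 0.117, adjusted p = 2.40e-05) and TAP2 (0.80, SE 0.118, adjusted p = 0.000169) were higher in MDA-MB-231 in the edgeR fit. HLA-E (-0.16, SE 0.108, adjusted p = 0.216) and TAP1 (-0.05, SE 0.129, adjusted p = 0.733) did not pass edgeR's threshold of 0.05. HLA-E passed with DESeq2, with an adjusted p of 0.0399. HLA-C did not pass in edgeR without the treatment block, with an adjusted p of 0.0510 at the same log2 difference of -0.49.

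The remaining genes of the pathway were read from fixed lists with the same 2-fold rule. Among 8 genes of peptide loading and trimming, 1 was higher in MDA-MB-231 and 2 were lower. These are all involved in the final editing of peptides: ERAP1, an aminopeptidase, was 2.57-fold higher in MDA-MB-231 (2.41 to 2.75), whereas its relative ERAP2 (6.22-fold) and the tapasin-related protein gene TAPBPL (4.45-fold) were higher in MDA-MB-435. Among 5 genes of the immunoproteasome and its activator PA28, 2 were higher in MDA-MB-435 and 1 was higher in MDA-MB-231. The catalytic subunits PSMB8 and PSMB9, which lie beside TAP1 and TAP2, had 850 and 212 counts in the MDA-MB-231 control and 2420 and 990 in that of MDA-MB-435. PSMB8 was thus 2.66-fold (2.46 to 2.88) and PSMB9 4.36-fold (3.75 to 5.08) higher in MDA-MB-435, while PSME1, a PA28 subunit, was 2.07-fold higher in MDA-MB-231. None of the 3 constitutive catalytic subunits, which those of the immunoproteasome replace, passed 2-fold. In edgeR's fit over the 4 libraries 1 of them, PSMB7, was lower in MDA-MB-231 (log2 -0.45, adjusted p = 0.00509).

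Of 15 tested regulators of class I genes, NFYB (2.24-fold) and STAT2 (2.05-fold) were higher in MDA-MB-231 and IRF9 (2.03-fold) was higher in MDA-MB-435. In edgeR's fit over the 4 libraries, NFYB (adjusted p = 8.20e-05) and STAT2 (adjusted p = 0.000191) were called higher in MDA-MB-231. IRF9 was not called (log2 -0.64, SE 0.374, adjusted p = 0.158). That fit called 5 of the 15 higher and 1 lower in MDA-MB-231, beside 32.4% and 30.5% of all genes. NFYB is a subunit of the CCAAT-binding factor NF-Y, and STAT2 and IRF9 belong to the type I interferon complex ISGF3. Of 10 interferon receptor and signalling genes, only SOCS1, an inhibitor of JAK kinases, passed, with 10 counts in MDA-MB-231, compared with 50 in MDA-MB-435 (4.67-fold, 2.34 to 10.3). MDA-MB-231 had 8 of 18 interferon-stimulated genes at a higher level and 3 at a lower one, beside 21.9% and 23.5% of all genes. The largest differences were those of IFI27 (50.2-fold), IFIT1 (19.4-fold) and OAS2 (14.3-fold), all antiviral response genes. Their list median was 0.98 on the log2 scale, compared with -0.36 for the class I members, and the difference between the lists was not tested. Of 9 tested class I-like genes and stress ligands, 3 were higher in MDA-MB-231, among them FCGRT (5.80-fold), the heavy chain of the neonatal Fc receptor, and ULBP2 (3.02-fold), a ligand of NKG2D. PROCR, the endothelial protein C receptor, was 4.26-fold higher in MDA-MB-435.

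The class II pathway, which serves antigen presentation to CD4 T cells, differed most, with 11 of 12 genes higher in MDA-MB-435 and 0 higher in MDA-MB-231. The list median was -6.52 on the log2 scale. HLA-DQB1 had 0 counts in the MDA-MB-231 control and 4518 in MDA-MB-435, which is at least 1405-fold higher when 0 is set to the floor of 3 counts used for each library. HLA-DQA1 had 0 and 1071 counts, at least 333-fold higher in MDA-MB-435. HLA-DRB1 had 1 and 1126 counts, a ratio of 1051 without the floor, whose counting interval of 188 to 41532 is too wide to place it against the other class II genes. CIITA, the transactivator of class II genes and a relative of NLRC5, had 106 and 1072 counts, 9.44-fold higher in MDA-MB-435 (7.72 to 11.6). As for the class I chains, the part of allele sequence in these HLA values was not tested.

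**Figure D2:**
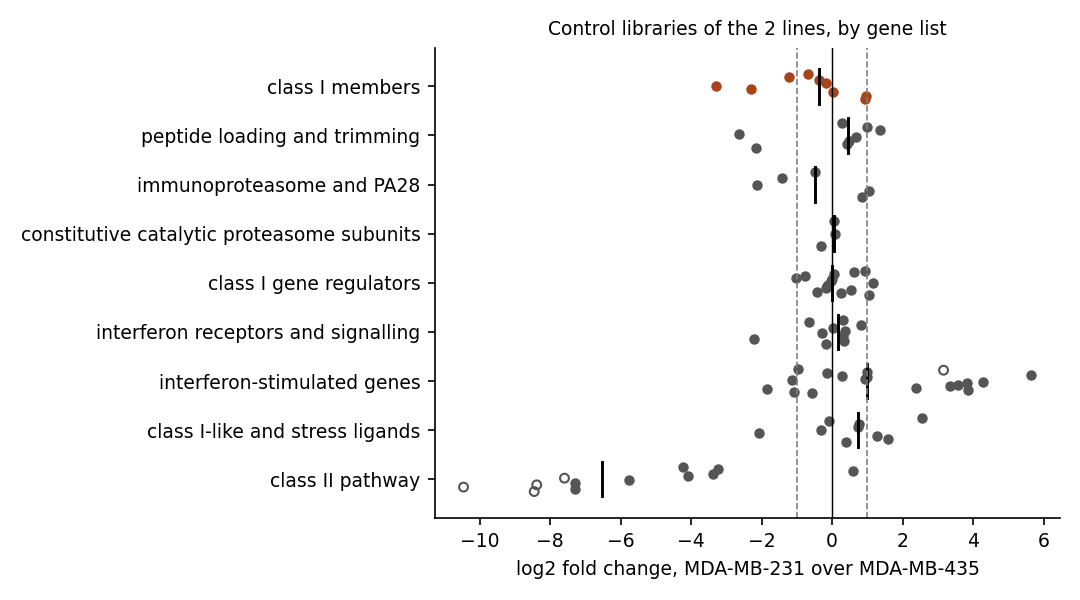
Log2 fold change of the control libraries, MDA-MB-231 over MDA-MB-435, for each tested gene of each list (1 point per gene, class I members in brown). Vertical bars are list medians, dashed lines mark 2-fold, and open points are values computed against a library with 3 or fewer counts. The class I members have a median of -0.36 and the class II genes one of -6.52, while the interferon-stimulated genes have one of 0.98.

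After CPYPP, 0 of the 9 class I members passed 2-fold in either line. Of all genes tested, 10.8% passed in MDA-MB-231 (5.4% higher and 5.43% lower) and 13.8% in MDA-MB-435 (4.02% higher and 9.75% lower), so counts of 0 are close to what the background share gives for 9 genes. The median log2 change of the members was -0.06 in MDA-MB-231 (all genes -0.01) and 0.05 in MDA-MB-435 (all genes -0.02). Member values on this scale ran from -0.44 to 0.19 for MDA-MB-231. For MDA-MB-435 they ran from -0.48 to 0.31. Whether other genes of similar read depth spread more widely was not tested.

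The light chain B2M stood at 1.00 times its control in MDA-MB-231 (0.975 to 1.03) and 1.08 times in MDA-MB-435 (1.06 to 1.11). HLA-E stood at 1.14 (1.10 to 1.19) and 1.12 (1.08 to 1.17), above 1 in both lines. HLA-B stood at 0.922 (0.874 to 0.972) and 1.06 (1.02 to 1.09), and HLA-C at 0.851 (0.777 to 0.930) and 1.03 (0.964 to 1.11). For both classical chains the MDA-MB-231 value was thus below 1 and the MDA-MB-435 value above 1, but with total-count scaling the latter were 0.951 and 0.933, on the same side as MDA-MB-231. HLA-F, with few reads in MDA-MB-231, stood at 0.958 (0.623 to 1.46) and 0.916 (0.807 to 1.04), and both intervals include 1.

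TAP1 gave the lowest ratio of the members in MDA-MB-231, 0.735 (0.671 to 0.804), and 0.830 in MDA-MB-435 (0.764 to 0.902). TAP2 stood at 0.988 (0.934 to 1.04) and 1.24 (1.16 to 1.33), so that TAP1 had the lower ratio of the transporter subunits in both lines. TAPBP stood at 0.966 (0.917 to 1.02) in MDA-MB-231, whereas it stood at 0.842 (0.783 to 0.904) in MDA-MB-435. NLRC5 stood at 0.903 (0.755 to 1.08) in MDA-MB-231 and gave the lowest ratio in MDA-MB-435, 0.716 (0.661 to 0.776). Among all genes of that comparison this lies at percentile 21.8, and TAP1 in MDA-MB-231 at percentile 16.3, so neither was extreme. PSMB9, which overlaps TAP1 on the opposite strand, had 212 and 92 counts in MDA-MB-231 (ratio 0.592) and 990 and 717 in MDA-MB-435 (0.934). PSMB8 had 850 and 455 counts (0.731) and 2420 and 1755 counts (0.935). The antisense gene PSMB8-AS1, which also overlaps TAP1, had 99 and 44 counts in MDA-MB-231, compared with 169 and 64 in MDA-MB-435.

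**Figure D3:**
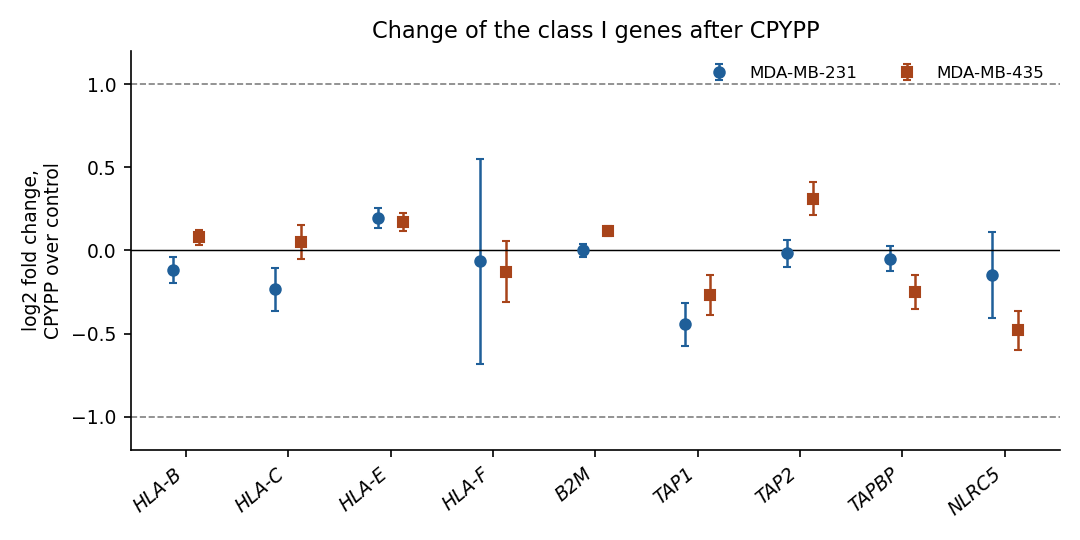
Log2 fold change, CPYPP over control, of the 9 class I genes after TMM scaling, with 95% exact binomial intervals for counting error. Circles are MDA-MB-231, squares MDA-MB-435, and dashed lines mark 2-fold. All points lie between -0.48 (NLRC5 in MDA-MB-435) and 0.31 (TAP2 in MDA-MB-435), well inside the dashed lines.

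The direction of these small changes depended on the scaling. Against TMM, total counts shifted the median of all genes by -0.15 and the upper quartile by -0.11 on the log2 scale in MDA-MB-435, where 5 members stood above 1 with TMM, 3 with the upper quartile and 2 with total counts. In all 5 scalings tried, HLA-E stood above 1 and HLA-F, TAP1, TAPBP and NLRC5 below 1 in both lines. B2M in MDA-MB-435 was 0.978 with total counts and thus crossed 1.

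The common CPYPP effect was tested by the same edgeR quasi-likelihood fit over all 4 libraries, now reading the treatment term, which takes the 2 lines as the only repeat of the treatment. It called 0 of the 9 members, beside 7.23% of 16801 genes (4.39% higher and 2.85% lower, or 737 and 478 genes, a balance that turned to 854 higher and 1111 lower with total counts), and 2 members had an unadjusted p below 0.05. These were TAP1, with an edgeR log2 change of -0.40 (SE 0.129, adjusted p = 0.0968), and NLRC5, with -0.38 (SE 0.156, adjusted p = 0.192), and both genes were below control in each line. DESeq2 called 1 member, TAP1, with an adjusted p of 0.00884, and edgeR with total-count scaling also called TAP1 alone, with an adjusted p of 0.0263. The other edgeR estimates lay between -0.19 for TAPBP (SE 0.116, adjusted p = 0.405) and 0.14 for HLA-E (SE 0.108, adjusted p = 0.525). The SEs of the 9 members ran from 0.108 to 0.206 on the log2 scale.

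The other lists were described in the same way. In MDA-MB-435, 0 genes of peptide loading, the immunoproteasome, the constitutive proteasome, class I regulators, interferon signalling, interferon-stimulated genes and class I-like genes passed 2-fold after CPYPP. In MDA-MB-231 the interferon-stimulated genes IFI44L (16 and 28 counts in control and CPYPP, 2.39-fold higher, 1.25 to 4.73) and CXCL10 (25 and 6 counts, 3.05-fold lower, 1.22 to 9.10) passed, both with few reads, and 0 genes of the other 6 lists did. IFI44L and CXCL10 were below 10 counts in both MDA-MB-435 libraries and were not tested there, where 16 of the 18 interferon-stimulated genes were. In the fit over both lines, edgeR called HSPA5, the chaperone BiP, higher (log2 0.44, SE 0.112, adjusted p = 0.0428) and CREB1, which encodes a CRE-binding factor, higher (log2 0.53, SE 0.128, adjusted p = 0.0337). It called 0 genes of the immunoproteasome, constitutive proteasome, interferon signalling, interferon-stimulated and class I-like lists, in which 2, 0, 1, 1 and 1 had an unadjusted p below 0.05. In the same lists DESeq2 called 0, 0, 0, 1 (lower) and 1 (higher).

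CIITA fell in both lines. Its counts went from 106 to 34 (2.28-fold lower, 1.54 to 3.47) in MDA-MB-231, while MDA-MB-435 had 1072 before and 229 after CPYPP (3.63-fold lower, 3.14 to 4.21), with a common edgeR log2 change of -1.68 (SE 0.226, adjusted p = 0.00210). NLRC5, its class I counterpart, stood at 0.903 and 0.716 of control. The other 11 class II genes in MDA-MB-435, where they were abundant, all stayed within 2-fold, with log2 changes from -0.16 to 0.23. In MDA-MB-231 only 6 of these 11 were tested, and HLA-DPA1 passed with 41 and 15 counts (2.003-fold lower, 1.09 to 3.90). edgeR and DESeq2 each called 0 of the 11 in the common fit, and 0 had an unadjusted p below 0.05 in edgeR.

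**Figure D4:**
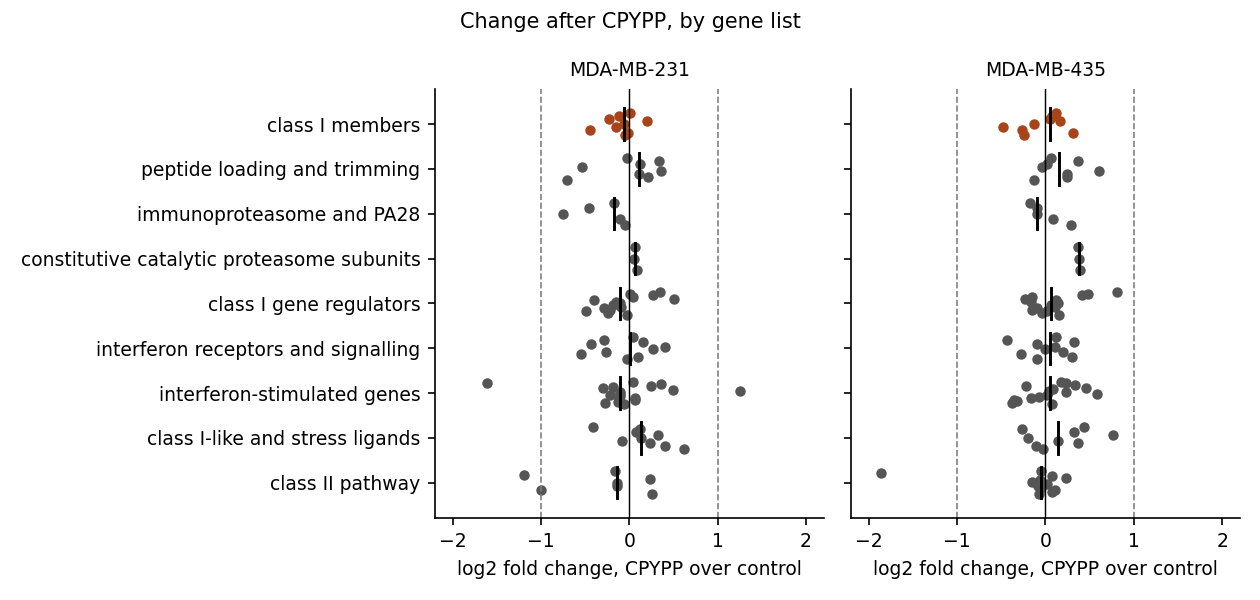
Log2 fold change, CPYPP over control, for each tested gene of each list in MDA-MB-231 (left) and MDA-MB-435 (right), with class I members in brown. Vertical bars are list medians and dashed lines mark 2-fold. In MDA-MB-435 a single point, CIITA at -1.86, lies beyond the dashed lines.

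Whether the lines responded differently was measured as the ratio of the MDA-MB-435 fold to the MDA-MB-231 fold, with a 95% interval from Poisson counting error. An interaction could not be tested, since it leaves no residual degrees of freedom. The ratio was 1.26 for TAP2 (1.15 to 1.37), 1.22 for HLA-C (1.09 to 1.36), 1.14 for HLA-B (1.08 to 1.22), 1.13 for TAP1 (1.00 to 1.28) and 1.08 for B2M (1.05 to 1.12). It was 0.793 for NLRC5 (0.655 to 0.961) and 0.872 for TAPBP (0.798 to 0.951). The intervals of HLA-E (0.983, 0.931 to 1.04) and HLA-F (0.956, 0.626 to 1.46) included 1. Hence 7 of the 9 intervals excluded 1, beside 42.8% of 14262 genes, a share that is not matched for read depth. The lower bound for TAP1 lay at 1.0003, and with total-count scaling 6 of the 9 intervals excluded 1.

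The members were compared with the other genes of their region, the 322 between HLA-F and TAPBP on chromosome 6. They include the class II HLA genes, PSMB8 and PSMB9 described above, so their counts are not independent of those lists. Of the 322, 147 were tested between the controls. MDA-MB-231 had 22 higher and 43 lower (median log2 fold -0.11), beside 21.9% and 23.5% of all genes. After CPYPP, MDA-MB-231 had 8 higher and 10 lower of 127 (median -0.14), beside 5.4% and 5.43% of all genes. MDA-MB-435 had 6 higher and 24 lower of 137 (median -0.16), beside 4.02% and 9.75%. In the common edgeR fit, 4 of 131 were higher and 7 lower, beside 4.39% and 2.85%.

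Some member reads cannot be assigned with certainty. The annotated transcripts of TAP2 shared 30.3% of their distinct 100-base stretches with other genes, those of HLA-F 15.3%, HLA-B 12.9%, TAP1 7.26%, HLA-E 0.491% and HLA-C 0.126%, whereas B2M, TAPBP and NLRC5 shared none. The strand setting of the counting is not given in the sources used here, so reads of TAP1 and its opposite-strand neighbours, or of HLA-F and its antisense gene HLA-F-AS1 (28, 57, 78 and 82 counts in the 4 libraries), may be mixed. TAP2 overlaps the same-strand gene ENSG00000250264, which had between 5 and 13 counts. TAPBP overlaps ENSG00000289100 on the opposite strand, with 8, 9, 14 and 3 counts in the 4 libraries. Further genes that overlap HLA-B, HLA-F or NLRC5 had at most 3 counts in any library.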

How the data were processed

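Poly(A) RNA isolated with TRIzol was sequenced in 4 libraries by a service provider. The authors deposited raw read counts per gene without normalization, together with symbols, positions and exon lengths. The submitters' processing notes name cutadapt 1.9.1, HISAT2 2.2.1, HTSeq 0.6.1, DESeq2 and GRCh37.p13. Multimapping and strand settings are not given in the sources used here. HLA genes were counted against a single reference, and the reads lost by divergent alleles were not measured.

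Counts were analysed in R 4.3.3 using limma 3.58.1, edgeR 4.0.16 and DESeq2 1.42.0, and with Python 3.11.15, numpy 2.4.6, pandas 2.3.3 and matplotlib 3.10.9. For each pair of libraries, genes with at least 10 counts in 1 of them were TMM-scaled, counts of 3 or fewer were set to 3, and a fold over 2 was called, with Clopper-Pearson 95% intervals. With 1 library per group no p-value within a line was possible. The edgeR fit over all 4 libraries was additive in line and treatment, after filterByExpr, with Benjamini-Hochberg adjustment and a biological coefficient of variation of 0.121. RPKM was computed from the counts, the deposited exon lengths and total counts. With depths between 17196385 and 22663954 counts, the members had from 40 to 22238 counts, and HLA-F in MDA-MB-231 is the least precise. The p-values measure only the spread between these libraries, pooled in part over genes. The procedure was run on simulated counts with known changes, and interval coverage was recorded only for Poisson counts. Such a run does not measure the spread between cultures.

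All 9 members, PSMB8, PSMB9 and genes that overlap a member and had more than 3 counts in any library were named. Of each further list, at most 3 genes per comparison were named, those with the largest change among those past the threshold. Beyond this rule, CIITA between the controls, and SOX10, DCT, PMEL, MITF, MLANA, TYR, CDH1, ESR1, PTPRC and MS4A1 as label checks, were named. The members and lists were chosen with earlier results of these data known. Alternatives covered scaling, filters, fold limits, assumed variation, DESeq2 and a fit without the block; TMM over all 4 libraries was added after seeing the data. Promoters came from RefSeq (GRCh38.p14).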

Additional observations from a re-analysis of the deposited data

Results flagged for a closer look

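HLA-B stood on opposite sides of its control in the lines after CPYPP, at 0.922 times in MDA-MB-231 and 1.06 times in MDA-MB-435, and each counting interval excluded 1. The difference between the lines was not tested, since each condition has 1 library. With total-count scaling the MDA-MB-435 value was 0.951, and with the upper quartile 0.977, so that both lines then lay below 1.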

How the results depend on the processing

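The labels give no replicate numbers and each group holds 1 library, so the only pairing was that of control and CPYPP within a line, through the line block of the edgeR fit. In each line, 0 members passed 2-fold after CPYPP under all alternatives tried, including a limit of 1.5-fold. Between the controls, 2 members (TAP2 and TAPBP) were higher in MDA-MB-231 at a limit of 1.5-fold, compared with 0 as reported, and 1 member (HLA-F) was lower when a biological coefficient of variation of 0.4 was assumed, compared with 3. For the common CPYPP effect, 1 member, TAP1, was lower with total counts and 1, also TAP1, with DESeq2, compared with 0. The common CPYPP estimate of B2M reversed from 0.016 to -0.051 with total counts and to -0.019 with the upper quartile. Over all genes the edgeR fit called 1215 for CPYPP, compared with 1965 with total counts (854 higher and 1111 lower, against 737 and 478), 1896 without a filter, 2131 with DESeq2 and 0 without the line block, where 0 members had an unadjusted p below 0.05. In the line difference, HLA-E passed with DESeq2 (adjusted p = 0.0399) and HLA-C did not pass in edgeR without the treatment block (adjusted p = 0.0510). The causes were not tested. Depth limits HLA-F in MDA-MB-231, at 57 and 40 counts.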
